A study of Drosophila melanogaster with 4 samples.

Results

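The H3K23ac clusters of the euchromatic X chromosome are the regions of significant enrichment that start between positions 1 and 20000000 of the X sequence of FlyBase release 5, counted from the distal (telomeric) end. The 3 deposited lists they come from are those of replicate 1, of replicate 2 and of a replicate set, whose construction the labels and headers do not state. This gave 4752 of 36023 clusters in all, namely 583 of 6267 in replicate 1, 1514 of 11757 in replicate 2 and 2655 of 17999 in the replicate set. Position alone decided membership, so no measured value was used to choose them. The series held 4 libraries of chromatin from third-instar larvae of the wild-type Drosophila melanogaster strain Oregon-R, all untreated as far as the labels say. An antibody to H3K23ac was used for 2 of them, and the other 2 were inputs, which served as controls for the like-numbered ChIP libraries. The tissue was larval material raised in bulk from population cages, so each library averages over the cells of many animals. The labels give neither the sex of the larvae nor a separate origin for the replicates, so the spread between replicates may be technical. The files hold no read totals and the depth is unknown. With 2 ChIP libraries no exact permutation test between samples could reach a threshold, and the values below are a description with the SD over the 2 replicates.

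H3K23ac is a mark of the histone H3 tail in which a lysine carries an acetyl group, which weakens the contact of the tail with DNA and can be bound by reader proteins. In Drosophila the MYST-family acetyltransferase Enok is known to place it, and acetylated H3 tails are generally found in accessible, transcribed chromatin. The fly X is of particular interest for histone acetylation because in males the dosage compensation complex binds active X-linked genes and acetylates histone H4, and raises their transcription. Genes are unevenly packed along the chromosome, and regions of the larval X range from interbands to compact, late-replicating stretches. A gene annotation of release 5 was not used here, so clusters are named by their positions and not by genes.

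Replicate 2 held many more and somewhat wider X clusters than replicate 1. Replicate 1 covered 1.06 Mb of the 20 Mb (5.29%) and replicate 2 covered 3.58 Mb (17.9%), with a mean of 11.6 ± 8.91% (SD, n = 2) and a ratio of 3.38. In number of clusters the ratio was 2.60. The replicate set covered 6.35 Mb (31.7%). Widths differed less, and the median cluster of replicate 1 spanned 1633 bp, that of replicate 2 spanned 1919 bp and that of the set 1771 bp. In replicate 1, 75.1% of clusters were under 2 kb wide and 2 clusters reached 5 kb, whereas in replicate 2 these values were 54.8% and 78 clusters. The middle 50% of widths lay between 1413 and 1999 bp in replicate 1 and between 1518 and 2580 bp in replicate 2.

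The authors deposited a score with each cluster, whose scale no header states, so it was used only within a list. The median score was 0.63 in replicate 1 (range 0.40 to 1.15), 0.62 in replicate 2 (0.15 to 1.16) and 0.43 in the set (0.12 to 3.16). Wider clusters tended to score higher. The Spearman correlation between width and score was 0.311 over the 583 clusters of replicate 1, 0.614 over the 1514 of replicate 2 and 0.377 over the 2655 of the set, given as a description because clusters share a library.

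By 5 Mb section, coverage was highest in the distal one, lowest from 10 to 15 Mb and higher again from 15 to 20 Mb. From 0 to 5 Mb clusters covered 7.63% in replicate 1 and 25.8% in replicate 2. The section from 5 to 10 Mb had 4.90% and 15.4%, that from 10 to 15 Mb had 3.58% and 12.9%, and that from 15 to 20 Mb had 5.06% and 17.5%. The 4 sections kept the same order in both replicates. Of the clusters of at least 5 kb, 45 of 78 in replicate 2 and 89 of 192 in the set started in the first 5 Mb. Of clusters of any width, 467 of 1514 and 719 of 2655 did. In replicate 1 it was 2 of 2, too few to read, beside 201 of 583 of any width. Median width in the distal section was 1690 and 2056 bp in the 2 replicates, against 1563 and 1759 bp from 10 to 15 Mb.

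By megabase, the one from 1000001 to 2000000 had the highest coverage in all 3 lists, with 13.1% in replicate 1, 46.9% in replicate 2 and 60.4% in the set. It was followed in replicate 2 by the megabase from 18000001 to 19000000 (7.43% in replicate 1 and 26.7% in replicate 2) and by those from 2000001 to 3000000 (7.78% and 24.95%) and from 1 to 1000000 (7.37% and 24.6%). The same 4 megabases were also the fullest 4 of replicate 1 and of the set. The lowest megabase of all 3 lists was the one from 12000001 to 13000000, with 1.53%, 7.00% and 14.2%, and 9, 36 and 76 clusters. The ratio of replicate 2 to replicate 1 ranged from 2.501 in the megabase from 7000001 to 8000000 to 5.49 in that from 11000001 to 12000000, with a median of 3.43 over the 20 megabases.

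**Figure D1:**
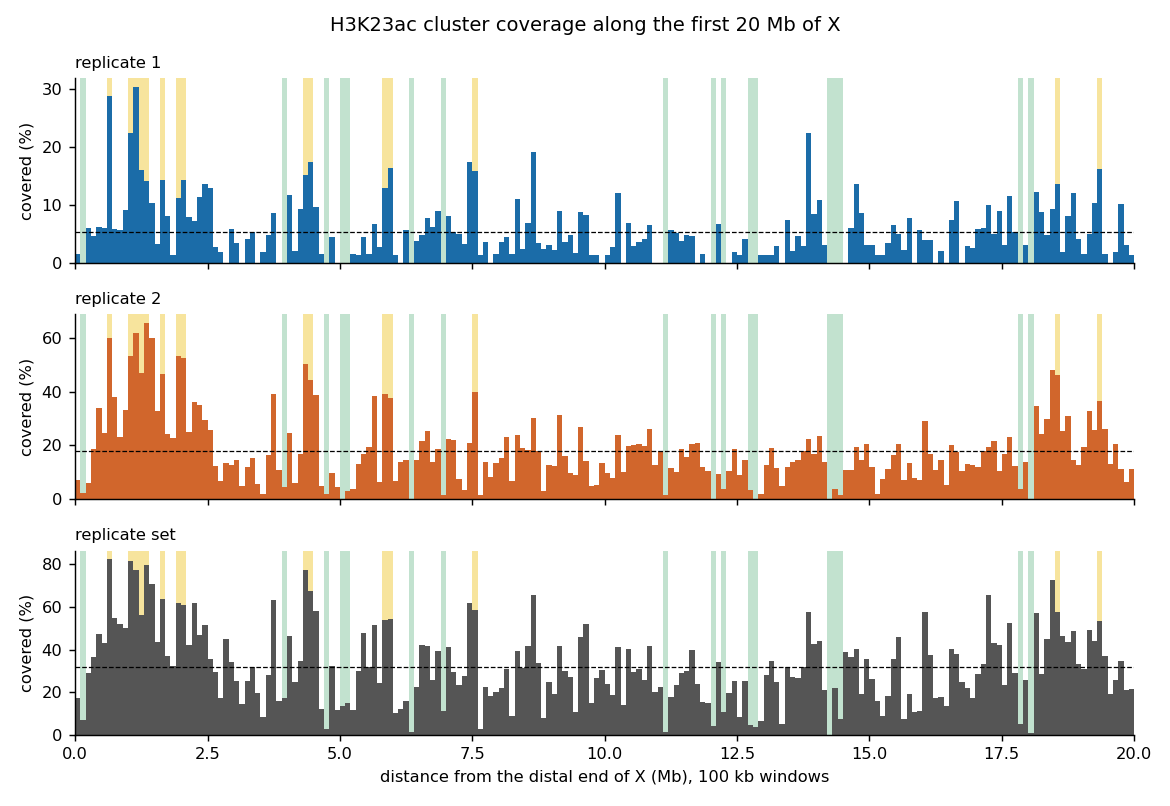
Percent of each 100 kb window covered by H3K23ac clusters, plotted against the distance from the distal end of X in Mb, with one panel for each list. The dashed line is the list's mean, yellow marks the 15 windows dense in both replicates and green the 17 windows sparse in both; 8 of the yellow windows lie in the first 2.5 Mb, and 8 of the green ones between 10 and 15 Mb.

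Within these trends coverage changed sharply from one 100 kb window to the next. Over the 200 windows it ranged from 0 to 30.3% in replicate 1 (median 3.84%), from 0 to 65.7% in replicate 2 (median 14.5%) and from 0 to 82.3% in the set (median 29.5%). The number of cluster starts per window reached 13, 22 and 29. The 20 fullest windows of each list held 32.7% of all covered sequence in replicate 1 and 26.9% in replicate 2, and the 100 emptiest held 13.2% and 23.1%. Coverage of neighbouring windows was moderately related, with a Spearman correlation of 0.285 in replicate 1 and 0.440 in replicate 2 over 199 neighbouring pairs. At a distance of 5 windows the correlation was 0.0045 and 0.0894 over 195 pairs.

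A window was called dense in a list when its coverage was at least 2 times that list's mean over the 20 Mb, which is 10.6% in replicate 1 and 35.8% in replicate 2, and sparse at no more than 0.25 times the mean, which is 1.32% and 4.47%. Dense in replicate 1 were 30 windows and in replicate 2 there were 22, of which 15 were shared (7.5% of the 20 Mb). No window was dense in one replicate and sparse in the other. The 15 shared windows formed 9 blocks, 5 of them a single window long. Among them were 130 replicate 1 clusters (22.3%) and 235 replicate 2 clusters (15.5%), and the windows were covered to 17.2%, 49.1% and 65.7% in replicate 1, replicate 2 and the set. Of the 15, 10 lay in the first 5 Mb, 3 from 5 to 10 Mb, 0 from 10 to 15 Mb and 2 from 15 to 20 Mb. Between 8 and 18 Mb 0 of 100 windows were dense in both. The member nearest to the threshold was the window from 19300001 to 19400000 (16.2% and 36.7%), and the nearest to it outside was that from 2300001 to 2400000 (11.4% and 35.1%).

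The longest dense block ran over 4 windows, from 1000001 to 1400000, and contained 3 of the 5 windows with the highest mean coverage. It was covered to 20.7% in replicate 1, 57.1% in replicate 2 (mean 38.9 ± 25.8%, SD, n = 2) and 73.7% in the set. Its windows ranged from 14.1 to 30.3% in replicate 1 and from 47.2 to 65.7% in replicate 2. The 42 clusters that replicate 1 placed there were typically 1650 bp wide and 3986 bp apart (medians), and the 65 of replicate 2 were 2229 bp wide and 2027 bp apart. In replicate 2, 10 of the 65 were at least 5 kb wide. The windows of the block were chosen for their cover in both replicates, which raises the overlap there, so it is given as a description. Of the 42 clusters of replicate 1, 39 shared at least 1 bp with replicate 2 (92.9%), which covered 57.1% of the block. This share was 71.4% for all X clusters of replicate 1 and 81.6% for its clusters in the series. Of the 65 clusters of replicate 2, 27 shared at least 1 bp with replicate 1 (41.5%), which covered 20.7% of the block. That share was 25.8% for all X clusters of replicate 2 and 39.9% for its clusters in the series. The longest cluster-free gap inside the block was 48088 bp for replicate 1, 9304 bp for replicate 2 and 9329 bp for the set.

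**Figure D2:**
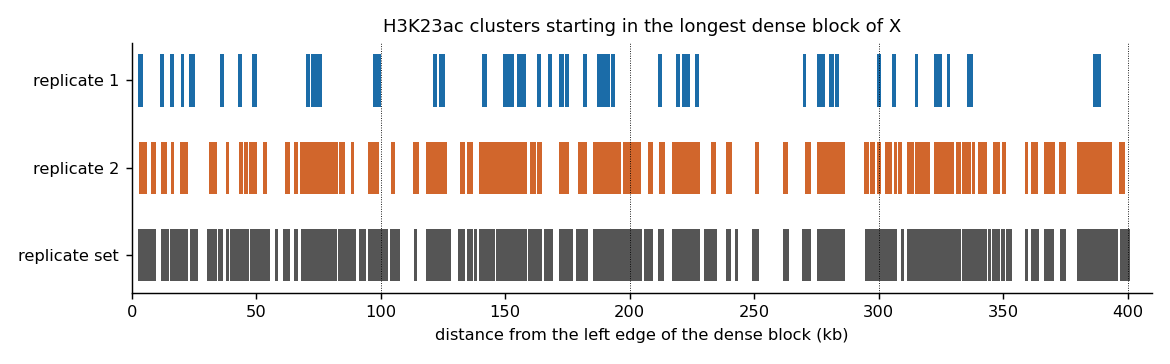
Clusters that start in the dense block from 1000001 to 1400000, drawn to scale against the distance from its left edge in kb, with one row for each list and dotted lines at window borders. Many of the 42 narrow clusters of replicate 1 lie within the wider clusters among the 65 of replicate 2, and the set has 61 clusters, the widest of them 19671 bp.

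The window from 1100001 to 1200000 had the highest mean coverage of the 200, with 30.3% in replicate 1 and 62.2% in replicate 2 (46.2 ± 22.5%, SD, n = 2). In replicate 2 it held the clusters 1139592 to 1150834 (11243 bp, score 0.79), 1150957 to 1158724 (7768 bp, score 0.79) and 1185143 to 1196630 (11488 bp, score 0.94). Over the first 2 of these replicate 1 had called the clusters 1140755 to 1142909, 1149158 to 1153719 and 1154719 to 1158550, and within the third 1186778 to 1192249 and 1192353 to 1194193. Both lists called these stretches, replicate 1 in shorter pieces and with a cluster (1149158 to 1153719) that bridges the break between the first 2 clusters of replicate 2. The next windows by mean coverage were 600001 to 700000 (28.8% and 60.1%), 1300001 to 1400000 (14.1% and 65.7%), 1000001 to 1100000 (22.3% and 53.5%) and 1400001 to 1500000 (10.3% and 60.4%). The last of these adjoins the block and missed the threshold of replicate 1 narrowly.

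The other dense blocks of the distal X were short. The window from 600001 to 700000 was fuller than its neighbours in both replicates. In replicates 1 and 2 the distal neighbour had 5.90% and 24.5%. The proximal neighbour had 5.79% and 38.1%, and was itself dense in replicate 2. The window held 13 clusters for replicate 1 and 22 for replicate 2, and the longest chain of clusters under 5 kb apart in replicate 1, which ran from 646737 to 668904 and had 6 members. The window from 1600001 to 1700000 (14.2% and 46.5%) and the pair from 1900001 to 2100000 (12.8% and 53.1%) followed. That pair had 13 clusters in replicate 1 and 30 in replicate 2, the widest of them 11211 bp. Further along, the block from 4300001 to 4500000 (16.2% and 47.5%, 31.8 ± 22.1% in the mean, SD, n = 2) had 19 and 34 clusters. The longest chain of replicate 2, with 18 clusters under 5 kb apart, began in it and ran from 4449671 to 4535805.

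Beyond 5 Mb dense blocks were few. They lay from 5800001 to 6000000 (14.5% and 38.3%), from 7500001 to 7600000 (15.8% and 39.9%), from 18500001 to 18600000 (13.6% and 46.4%) and from 19300001 to 19400000 (16.2% and 36.7%). Steep steps between neighbouring windows were picked out after their values were seen. The window after the block at 7500001 fell to 1.40% in replicate 1 and 1.55% in replicate 2, and the window after that at 5800001 had 1.37% and 6.61%. Away from a dense block, the window from 18000001 to 18100000 held no cluster of either replicate, while the next was covered to 12.2% and 34.7%.

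Windows could also be dense in a single replicate. In the 7 called in replicate 2 alone, replicate 1 had 5.79 to 10.3%, which is above its own mean of 5.29% in each. Of all 200 windows 76 were above that mean. In the 15 called in replicate 1 alone, replicate 2 had 14.6 to 35.1%, and 2 of these 15 windows lay below its mean of 17.9%. Of all 200 windows 83 were above that mean. The fullest of the 15 was the window from 13800001 to 13900000, which ranked 3 of 200 in replicate 1 with 22.5% and 55 of 200 in replicate 2 with 22.3%. Of its 12 replicate 1 clusters 7 overlapped replicate 2, beside 71.4% of all X clusters of replicate 1. Of its 11 replicate 2 clusters 5 overlapped replicate 1, beside 25.8% of all X clusters of replicate 2. The coverage was nearly equal in this window, although over the 20 Mb replicate 2 covered X 3.38 times as much.

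Sparse stretches were mostly single windows. Sparse in both replicates were 17 windows (8.5% of the 20 Mb) in 13 runs, 10 of them a single window. Replicate 1 had 0 clusters in the 17 windows and replicate 2 had 16, or 1.75% coverage, whereas the set had 7.49%. A window with one cluster of replicate 1 mostly exceeded the limit of 1.32%, because the narrowest cluster of that list on X was 1302 bp, so sparse in replicate 1 nearly means empty. The window closest to the limit inside was 3900001 to 4000000 (0 and 4.34%) and outside was 4900001 to 5000000 (0 and 4.58%). Of the 17, 8 were between 10 and 15 Mb, 4 between 5 and 10 Mb, 3 in the first 5 Mb and 2 between 15 and 20 Mb.

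The longest sparse stretch spanned 3 windows, from 14200001 to 14500000. Replicate 1 had no cluster in it. Replicate 2 had 3, namely 14366098 to 14368045 (score 0.72), 14368585 to 14370311 (0.82) and 14480916 to 14482330 (0.51), for a coverage of 1.70%. The set had 20 clusters there, but from 14184217 to 14301537 (117321 bp) it had none either, its longest gap on X. The 5 runs with the lowest mean coverage were the windows from 6300001, 12000001 and 18000001, each without a cluster in either replicate, and those from 6900001 (0 and 1.30%) and 11100001 (0 and 1.46%). In the last the lone cluster of replicate 2, 11151870 to 11153333, had 97559 and 83569 bp of cluster-free sequence on its sides.

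In all, 38 windows had no cover in replicate 1, 6 in replicate 2 and 1 in the set. Those of replicate 2 were also empty in replicate 1, in 6 of 6 cases. In the 38 windows without a cluster of replicate 1, replicate 2 covered a median of 4.83% and at most 20.9%, in the window from 11700001 to 11800000 with 10 clusters. Most windows empty in replicate 1 therefore did hold clusters in the longer list.

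Cluster-free gaps were measured base by base. In replicate 1 the longest were 14118224 to 14623685 (505 kb), 12610045 to 12991284 (381 kb), 4875029 to 5245834 (371 kb), 10834272 to 11204472 (370 kb) and 3764780 to 4042677 (278 kb). Replicate 2 had 16, 6, 5, 17 and 15 clusters inside these. Its own longest gaps were 4999308 to 5196947 (198 kb), 12795314 to 12991277 (196 kb), 14184233 to 14366097 (182 kb), 6258983 to 6429396 (170 kb) and 17976807 to 18134720 (158 kb). The first 3 lay within the first 3 of replicate 1, and replicate 1 had 0 clusters wholly inside any of the 5, with 0.0912% of the fifth covered. The set placed 18, 4, 6, 3 and 6 clusters in them. After 14184217 the longest gaps of the set began at 12870067 (110 kb), 16326033 (107 kb), 17817951 (105 kb) and 15859379 (103 kb).

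Gap lengths varied widely within each list. The median gap to the next cluster was 11216 bp for replicate 1 but 4200 bp for replicate 2 (mean 7708 ± 4961 bp, SD, n = 2), and the mean gaps were longer, at 32313 and 10832 bp. In the set the median was 2013 bp and the mean 5136 bp. Gaps under 1 kb made up 9.28%, 20.6% and 34.3% of all gaps in replicate 1, replicate 2 and the set, and gaps under 5 kb 31.1%, 54.3% and 70.7%. At the other end, the 218 gaps over 20 kb of replicate 1 took up 82.5% of the 20 Mb, and the 226 of replicate 2 took up 50.6%. Gaps over 100 kb numbered 45, 17 and 5 and took up 8.20, 2.32 and 0.542 Mb.

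**Figure D3:**
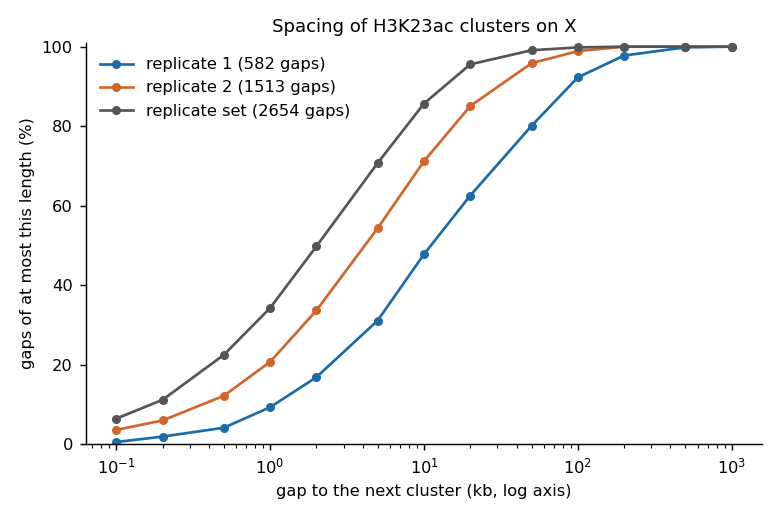
Cumulative share of gaps between neighbouring clusters on the first 20 Mb of X, against gap length in kb on a log axis, for the 3 lists. The curve of replicate 1 lies to the right of that of replicate 2, which lies to the right of the set, with medians of 11216, 4200 and 2013 bp.

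When clusters under 5 kb apart were joined, the 583 clusters of replicate 1 made 402 chains, of which 287 were single clusters, so 49.2% of its clusters stood alone. In replicate 2 this was 24.8% of clusters (376 of 692 chains) and in the set 12.1%. The median gap was shortest in the first 5 Mb, with 6941 bp for replicate 1 but 2634 bp for replicate 2, and was 14342 and 6744 bp from 10 to 15 Mb. The cluster of replicate 1 farthest from its neighbours, picked after its value was seen, was 16308885 to 16310867 (1983 bp, score 0.61), with 164078 bp free on the distal and 224087 bp on the proximal side.

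The replicates ranked the windows alike in a broad sense. Across the 200 windows the Spearman correlation of coverage was 0.747 and Pearson's r 0.764 (0.731 without the 2 windows farthest from the median of replicate 1). For the number of cluster starts the correlation was 0.714. For coverage by section it was 0.876 over the 50 windows of the first 5 Mb, 0.806 from 5 to 10 Mb, 0.609 from 10 to 15 Mb and 0.578 from 15 to 20 Mb. These are descriptions across windows that share a library, with no test.

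**Figure D4:**
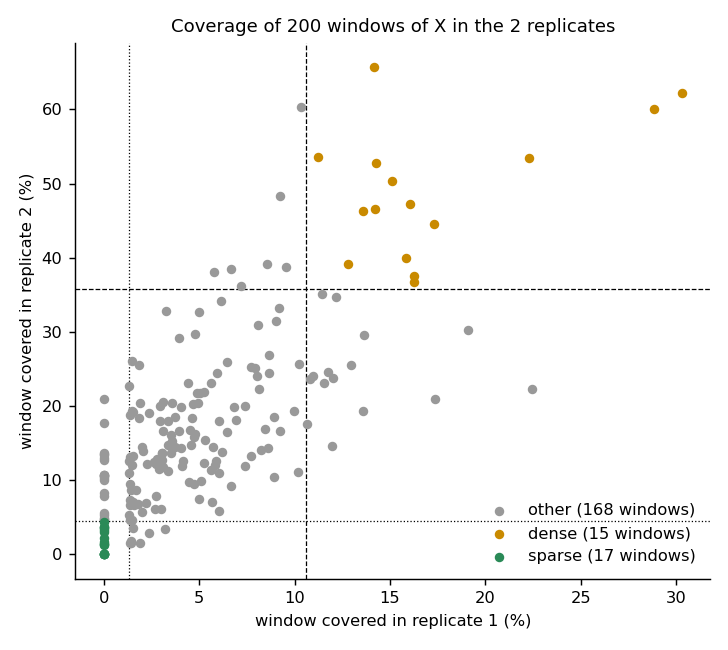
Coverage of each of the 200 windows in replicate 1 (x axis, percent) and replicate 2 (y axis, percent), with dashed lines at the dense limits of 10.6% and 35.8% and dotted lines at the sparse limits of 1.32% and 4.47%. The 15 dense windows fill the upper right, the 17 sparse windows sit at 0 in replicate 1, and no window is dense in one replicate and sparse in the other.

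Windows chosen on one replicate could be described in the other, which had no part in the choice. The 30 windows dense in replicate 1 were covered to 36.8% in replicate 2, against 14.6% in the remaining 170, and 28 of the 30 exceeded its mean. The 22 windows dense in replicate 2 were covered to 14.4% in replicate 1, against 4.17% elsewhere, and 22 of 22 exceeded its mean. Conversely the 41 windows sparse in replicate 1 had 7.08% in replicate 2 against 20.7% elsewhere. The 24 sparse in replicate 2 had 0.547% in replicate 1 against 5.94%.

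In the 2 replicates the windows differed more in the number of clusters than in their width or score. In the 30 windows dense in replicate 1, replicate 2 had 13.4 clusters per window against 6.54 elsewhere, but its median width was 2001 bp against 1892 bp and its median score 0.63 against 0.62. In the 22 windows dense in replicate 2, replicate 1 had 7.36 clusters per window against 2.37, with median widths of 1641 and 1633 bp and median scores of 0.63 and 0.64. The difference in score thus had opposite signs in the 2 directions. The set, which is not independent of the replicates, was described in a different choice of windows, those dense in both replicates. Its median width there was 2885 bp, against 1753 bp in windows neither dense nor sparse. By this choice the median of replicate 2 also differed, at 2202 bp against 1875 bp. That of replicate 1 was 1602.5 bp against 1637 bp. Windows dense in both were chosen for cover in both replicates, to which width adds, so these widths are a description.

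Most X clusters of replicate 1 were called again in replicate 2, less than across the whole series. Of 583 clusters, 416 shared at least 1 bp with a cluster of replicate 2 (71.4%, 95% exact binomial interval 67.5 to 74.99, counting error only, as for all such intervals here), beside 81.6% for all clusters of the list. In the other direction 390 of 1514 did (25.8%, interval 23.6 to 28.0), beside 39.9% for the whole list. Replicate 1 covered 5.29% of X and 11.8% of the autosomal arms, and replicate 2 covered 17.9% and 27.1%, and the part of these coverages in the shares was not tested. In bases, replicate 2 covered 62.8% of the sequence of replicate 1, which covered 18.6% of that of replicate 2. The sequence under both came to 0.665 Mb in 436 stretches, or 16.7% of the 3.97 Mb under either.

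Replicate 1 clusters were found again most often in the distal 5 Mb. The share of replicate 1 found in replicate 2 was 82.6% (interval 76.6 to 87.6) from 0 to 5 Mb, 66.9% (58.3 to 74.7) from 5 to 10 Mb, 66.7% (56.8 to 75.6) from 10 to 15 Mb and 63.1% (54.6 to 71.1) from 15 to 20 Mb. Replicate 2 covered 25.8% of the distal section and 15.4%, 12.9% and 17.5% of the others in order. The part of this coverage in the shares was not tested. For replicate 2 in replicate 1 the shares were 30.4%, 25.6%, 21.7% and 23.5%, with overlapping intervals for neighbouring sections. Windows dense in both replicates were chosen for their cover in both, so the overlap there is given as a description. In them 118 of 130 clusters of replicate 1 (90.8%, interval 84.4 to 95.1) were found in replicate 2, which covered 49.1% of those windows. In windows that were neither dense nor sparse it was 298 of 453 (65.8%, interval 61.2 to 70.1). None of the 16 clusters of replicate 2 in sparse windows could be found again, since replicate 1 had none there.

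**Figure D5:**
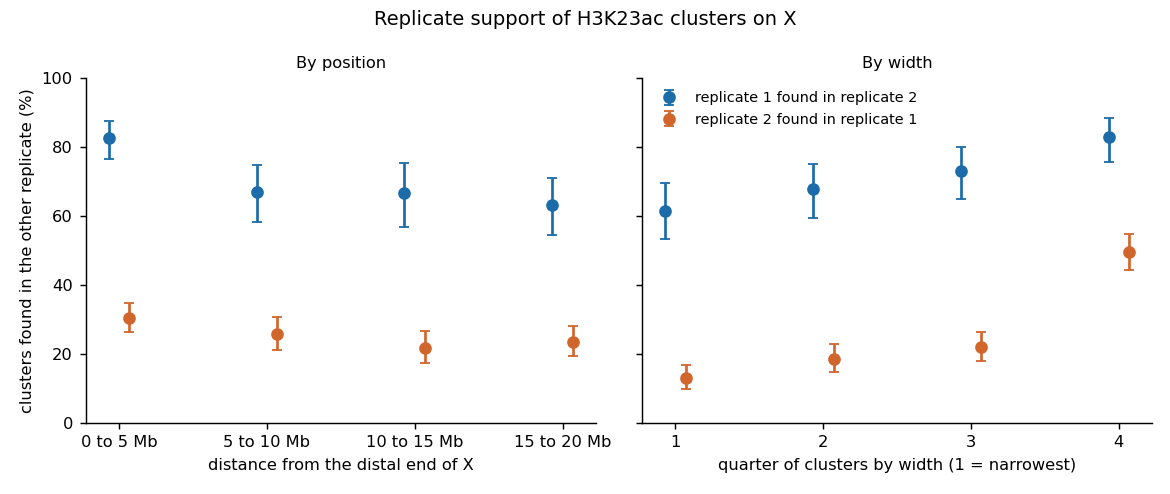
Percent of clusters of one replicate that share at least 1 bp with the other, by 5 Mb section of X (left) and by class of cluster width, each with 25% of the clusters (right). Points are shares and bars are 95% exact binomial intervals; replicate 1 is highest, at 82.6%, in the distal section, and both replicates are highest in the widest class, at 82.9% and 49.6%.

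Support also went with width and less with score. Among the narrowest 25% of clusters of replicate 1, 61.6% (interval 53.2 to 69.6) were found in replicate 2, and among the widest 25%, 82.9% (75.8 to 88.6). In replicate 2 these shares were 12.9% (9.72 to 16.7) and 49.6% (44.5 to 54.8). A wide cluster has more bases with which to meet another, and the part of this in the shares was not tested. By score the lowest and highest 25% of replicate 1 had 68.5% and 74.0%, with overlapping intervals, and those of replicate 2 had 19.0% (15.2 to 23.3) and 36.4% (31.6 to 41.5). The high-scoring clusters of replicate 2 were also the wider ones, with a median width of 2902 bp against 1546 bp.

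Shared clusters were mostly matched one to one. Among the 416 clusters of replicate 1 with a partner, 317 formed exclusive pairs with one of replicate 2, whose midpoints lay a median of 453 bp apart. In 245 of the 317 the cluster of replicate 2 was the wider, with a median ratio of 1.38. In addition 39 clusters of replicate 2 overlapped at least 2 of replicate 1. The most divided was 1216912 to 1228394 (11483 bp, score 0.91), which overlapped 4. Over the 416 pairs the scores were weakly related (Spearman correlation 0.210, a description).

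The replicate set is not independent of the replicates, and it contained nearly all of their X clusters: 576 of 583 (98.8%) and 1478 of 1514 (97.6%). Of its own 2655 clusters 364 overlapped both replicates (13.7%, interval 12.4 to 15.1), beside 21.8% for the whole set. A further 989 overlapped replicate 2 alone (37.3%), 139 replicate 1 alone (5.24%) and 1163 neither (43.8%, interval 41.9 to 45.7), beside 39.3% for the whole set. Clusters with support in both were much the wider, with a median of 4072 bp and a score of 0.53, against 1275 bp and 0.41 for those with none. The 364 therefore made up 29.1% of the sequence in the set on X and the 1163 made up 26.5%.

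Much of the unsupported class was narrower than any replicate cluster on X. Of 701 set clusters below that width, 606 (86.4%) overlapped neither replicate, against 557 of 1954 wider ones (28.5%, interval 26.5 to 30.6). Dense and sparse windows were chosen by the cover of the same replicates, which sets the overlap there, and nothing is read from it: 22.0% of the 245 set clusters in dense windows and 80.5% of the 87 in sparse windows had no support.

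The widest X clusters of the replicates lay in dense windows. In replicate 1 they were 615695 to 623092 (7398 bp), 1186778 to 1192249 (5472 bp), 18519475 to 18524109 (4635 bp), 1149158 to 1153719 (4562 bp) and 19357575 to 19361999 (4425 bp). Each lay in a dense window, and replicate 2 covered 97.1%, 100%, 100%, 97.3% and 72.4% of them. In replicate 2 they were 1694187 to 1706034 (11848 bp), 1067688 to 1079339 (11652 bp), 1382081 to 1393627 (11547 bp), 1185143 to 1196630 (11488 bp) and 1216912 to 1228394 (11483 bp). These 5 also started in dense windows, and replicate 1 covered 53.0%, 47.2%, 24.1%, 63.7% and 52.5% of them. Since width adds to coverage, wide clusters are part of what makes a window dense.

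In the set the widest were 1185284 to 1204954 (19671 bp), 1311298 to 1330564 (19267 bp), 4449396 to 4468172 (18777 bp), 970426 to 989084 (18659 bp) and 8652388 to 8669152 (16765 bp). The last 2 started outside the windows dense in both replicates. The fifth lay in a window that replicate 1 alone called dense, and overlapped 5 replicate 1 clusters and 2 replicate 2 clusters. The set clusters with the most sequence under both replicates were 615280 to 630654 and 1146356 to 1158856, then the widest, then 4449396 to 4468172 and 1275388 to 1286382. Replicate 1 covered 56.6%, 67.1%, 37.2%, 45.4% and 58.4% of these and replicate 2 covered 87.3%, 97.97%, 93.8%, 82.3% and 99.5%.

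The 5 highest-scoring clusters of each replicate were not among its 5 widest. In replicate 1 the highest were 13831577 to 13832893 (score 1.15), 11636029 to 11638029 (1.10), 19804254 to 19805657 (0.99), 17668330 to 17669932 (0.91) and 13839844 to 13842169 (0.88). None of the 5 lay in a window dense in both replicates, and such windows held 22.3% of the clusters of replicate 1. The first and the third were not found in replicate 2, beside 167 of all 583 X clusters of replicate 1. In replicate 2 they were 2020500 to 2026884 (1.16), 19670702 to 19676660 (1.11), 10500854 to 10503089 (1.09), 4513479 to 4520197 (1.08) and 11014828 to 11018531 (1.03). Of these 5 the first was in a window dense in both replicates, and such windows held 15.5% of the clusters of replicate 2. Replicate 1 covered 81.4%, 31.8%, 0%, 59.2% and 0% of the 5.

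The highest scores of the set belonged to narrow clusters. They were 13999380 to 14000384 (3.16), 8842836 to 8843848 (2.75), 4630040 to 4631042 (1.63), 13893962 to 13894988 (1.58) and 7375350 to 7376410 (1.43). On the first 20 Mb 7 set clusters scored at least 1, with widths of 1003 to 1061 bp, and 0 of the 7 overlapped a cluster of a replicate. All 7 were narrower than any replicate cluster on X, and of the 701 set clusters that narrow 606 (86.4%) overlapped neither replicate.

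Beside the autosomal arms 2L, 2R, 3L and 3R, the clusters of X were more widely spaced and less evenly spread, a comparison that was not tested. The median gap was 11216 bp on X and 5102 to 5664 bp on the 4 arms in replicate 1, and 4200 bp and 2555 to 3069 bp in replicate 2. The coefficient of variation of coverage over 100 kb windows was 1.02 on X and 0.751 to 0.890 on the arms in replicate 1, and 0.744 and 0.530 to 0.695 in replicate 2. Lower coverage raises this coefficient, and its part was not tested. The ratio of replicate 2 to replicate 1 in coverage was 3.38 on X and 2.13 to 2.47 on the arms, so the lists differed more on X.

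The share of empty windows gave no stable order. Neither replicate had a cluster in 3% of X windows and in 4.56% of autosomal windows, a difference of -1.56 percentage points or 6 of 200 and 44 of 965. Between the first and last cluster of each autosomal arm 0.758% of windows were empty, which turned the difference to 2.24 points. Without replicate 2 it was 9.78 points (19% on X and 9.22% on the arms), and without replicate 1 it was -1.87 points. Proximal to 20 Mb, the remaining 2.42 Mb of X had 39 starts in replicate 1, 118 in replicate 2 and 288 in the set. Clusters covered 2.42%, 9.49% and 22.7% of it, which is under the values of the first 20 Mb in each list.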

How the data were processed

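Chromatin of third-instar larvae was analysed in 2 H3K23ac ChIP libraries, each with an input, and samples were grouped by their titles. The submitters' processing notes name Bowtie 0.12.7 as a tool. Coordinates are those of FlyBase release 5, per the file headers. The only value of a cluster is the score that the authors deposited. Neither the peak caller with its threshold nor how the set was built from the replicates is stated in the labels or headers. List length depends on depth and on precipitation, so coverage is not an amount of H3K23ac.

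Coverage was computed as the union of clusters in 100 kb windows, with clusters counted by their start and cover by base. Overlap meant at least 1 shared bp. Intervals are exact binomial (Clopper-Pearson, 95%) and cover counting error only. Python 3.11.15, numpy 2.4.6 and scipy 1.17.1 were used, and the interval arithmetic was tested on simulated data. Regions were named by a fixed rule: all dense blocks, sparse stretches of at least 300 kb, and per list the 5 longest gaps and the 5 widest and 5 highest-scoring clusters, with the 5 fullest windows, the 5 emptiest runs and the 5 set clusters with the most sequence under both replicates. The members and rules were chosen with earlier results of these data known. Other windows, scores or overlaps were tried as alternatives. No genome of the deposited release was used here, so no sequence is shown.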

Additional observations from a re-analysis of the deposited data

How the results depend on the processing

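Of 44 alternatives over the 9 summary values, 22 kept the value within a limit, 19 moved it further and 3 reversed its sign. The limit was the spread between replicates or an exact binomial interval. For coverage and the median gap it was the SD over the 2 replicates. Leaving out 1 replicate always stays within that SD, so for these 2 values that outcome was fixed and says nothing about stability. For the correlation the limit was a small fixed distance that measures no spread, and all alternatives of the correlation fell outside it. Requiring a reciprocal overlap of at least 50% lowered the share of replicate 1 found in replicate 2 from 71.4% to 36.7%, and that of replicate 2 found in replicate 1 from 25.8% to 14.1%. With the better-scored 50% of each list the first was 61.7%. The share of set clusters in neither replicate, 43.8%, was 48.9% when at least 50% of a cluster had to be covered, 28.5% among those as wide as replicate clusters, and 49.0 to 81.1% with 1 replicate left out. The share of X in dense windows, 7.5%, was 13.5% at 1.5 times the mean and 11 to 15% with 1 replicate left out. The sparse share, 8.5%, was 15.3% in 50 kb windows, 5% in 200 kb windows, 21% at 0.5 times the mean and 12 to 20.5% with 1 replicate left out. The Spearman correlation between replicates, 0.747, was 0.631 in 50 kb windows, 0.785 in 200 kb windows, 0.682 in shifted windows, 0.719 with the better-scored 50% and 0.714 for cluster starts. The X minus autosomal difference in empty windows, -1.56 points, was 2.26 in 50 kb windows, -3.95 in 200 kb windows, 2.24 within the outermost clusters of the arms and -1.87 to 9.78 with 1 replicate left out. Leaving out 1 replicate gave coverages of 5.29 to 17.9% and median gaps of 4200 to 11216 bp. The causes were not tested. No paired analysis was possible because the results come from no test and the inputs have no list here. Depth is unknown, so a window without a cluster may still carry H3K23ac.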
